A study of Mus musculus with 2 samples.

Results

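The genes described here are 31 genes of fatty acid oxidation and of the peroxisome proliferator-activated receptors (PPARs), chosen by name. All 31 have a row in at least 1 of the gene count matrices, which together list 19357 genes. They were measured in aortic cells of male Apoe-/- mice on a C57BL/6 background. Diabetic mice were injected on 5 days, beginning at 6 weeks of age, with streptozotocin (daily dose 55 mg/kg), a toxin of insulin-producing beta cells, and control mice with citrate vehicle. Both groups lack apolipoprotein E, a ligand for lipoprotein clearance, so the controls are themselves prone to atherosclerosis. Aortae were taken at 17 weeks, after 10 weeks of follow-up, and the digested cells of 4 mice per group were pooled into 1 library. Cells were sorted for exclusion of 7AAD and uptake of calcein, which can change the class shares given below. With 1 library per group there was no replicate check, no p-value is given, and every 95% interval covers counting error only.

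Fatty acids enter mitochondria as carnitine esters and are then shortened in a repeated cycle of dehydrogenation, hydration, a second dehydrogenation and thiolysis, with electrons passed to the respiratory chain through the electron transfer flavoprotein. PPARs are nuclear receptors that bind fatty acids and, as dimers with retinoid X receptors, switch on many genes of this pathway, among them Pdk4, Angptl4 and Cpt1a. In the vessel wall, smooth muscle, endothelial cells and macrophages all use fatty acid oxidation, and macrophages are exposed to lipoprotein lipid in plaques.

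The diabetic library held 2524 annotated cells with a median of 4477.5 unique molecular identifiers (UMIs, counted mRNA molecules) and the control library 3060 cells with a median of 3760 UMIs. Levels are CPM (counts scaled to a fixed total), a gene's UMIs per 1000000 UMIs of the summed cells, and ratios are diabetic over control. The authors' annotation gives 13 classes. The 7 with at least 50 cells in each library were compared, namely fibroblasts (Fib-1, Fib-2, Fib-3), vascular smooth muscle cells (VSMCs-1, VSMCs-2), endothelial cells (ECs) and macrophages (Mac). In each of these 7 the marker list of its own cell type had the highest sum in both libraries once the erythroid list, mostly haemoglobin genes, was set aside. The erythroid sum was above that of the own cell type in diabetic Fib-1 (46236 CPM beside 28434), diabetic VSMCs-1 (37125 beside 30393), diabetic Fib-3 (20487 beside 16327) and ECs of both libraries (7624 beside 6613 in diabetic and 8015 beside 7304 in control ECs). The classes named MoDC and Mono were led by markers of foam cells. The class mix differed: VSMCs-2 supplied 48.3% of annotated UMIs in the diabetic library and 22.5% in the control library, and Mac 9.55% in the diabetic and 21.1% in the control library. The median mitochondrial share was 3.83% in diabetic cells and 2.87% in control cells. The libraries shared 15 cell barcodes, 8 of them among annotated cells. A gene is called higher or lower where the CPM ratio was at least 1.5-fold away from 1 and its interval did not contain 1, among genes with at least 10 UMIs over both libraries.

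Upstream sequences of 3 genes are shown. The stretch between Hadha and Hadhb is shared by a pair that is transcribed in opposite directions and encodes both subunits of 1 enzyme, and the ratios of the pair are set side by side below. Ucp2 and Fabp3 are genes whose levels differed widely between classes. Sequences are from RefSeq on GRCm38.p6, plus strand, with capitals marking CpG dinucleotides. The Hadha to Hadhb stretch is chr5:30155163-30155247 and holds 9 CpGs in 85 bases, the Ucp2 stretch is chr7:100493108-100493336 with 13 CpGs in 229 bases, and the Fabp3 stretch is chr4:130308488-130308594 with 9 CpGs in 107 bases. Each ends at the base before the annotated gene.
Hadhb: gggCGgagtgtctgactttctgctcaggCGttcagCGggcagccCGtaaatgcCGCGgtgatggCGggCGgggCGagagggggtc
Ucp2: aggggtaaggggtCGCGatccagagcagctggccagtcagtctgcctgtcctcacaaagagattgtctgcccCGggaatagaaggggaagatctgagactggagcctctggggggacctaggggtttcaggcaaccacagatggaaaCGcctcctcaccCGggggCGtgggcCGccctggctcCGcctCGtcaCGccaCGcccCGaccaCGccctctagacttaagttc
Fabp3: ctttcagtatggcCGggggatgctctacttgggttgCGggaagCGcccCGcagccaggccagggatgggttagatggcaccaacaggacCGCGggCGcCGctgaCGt

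RefSeq promoters were matched for 27 of the 31 genes, and those of Angptl4, Cpt1b, Acaa2 and Decr1 were not matched and so not searched. PPAR dimers bind direct repeats of a hexamer with a 1-base spacer, searched here as AGGTCANAGGTCA on both strands with up to 2 mismatches among the 12 fixed letters, from 250 bases before to 50 bases after the start. Of the 27 promoters 4 held a match (14.8%), against 3.86% of 32851 promoters in the table, and the single hexamer AGGTCA, which overlaps the longer motif, was present in 18.5% of the 27 and 16.3% of all. The 4 matches are shown 5′ to 3′ on the strand of the match, with capitals for the letters equal to the motif. They lie at chr7:100472940-100472952 (plus strand) for Ucp3, chr7:140116492-140116504 (minus strand) for Echs1, chr9:55512308-55512320 (plus strand) for Etfa and chr9:108662142-108662154 (plus strand) for Slc25a20.
Ucp3: AGGTttcAGGTCA
Echs1: AGGTCAcgGGTCc
Etfa: AGGgCAaAGGTaA
Slc25a20: AGGTgAaAGGTCg

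A match is a stretch of letters, not a measured site. Of these 4 genes Slc25a20 was called in 2 classes, while Echs1 and Etfa were called in none and Ucp3 had 0 UMIs in the diabetic and 1 UMI in the control library.

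Of the genes with many UMIs, 3 had levels tied to a group of cell classes. Ucp2, a carrier of the inner mitochondrial membrane, was a gene of blood-derived cells: Mac had 877 CPM in the diabetic library and 949 CPM in the control library, foam cells 1024 CPM in the diabetic and 1101 CPM in the control library, and B cells 494 CPM in the diabetic and 296 CPM in the control library. In VSMCs-2 it had 4.90 CPM in the diabetic and 2.87 CPM in the control library. After thinning each cell to 1000 UMIs, a Ucp2 UMI was found in 56.8% of diabetic Mac (49.6 to 63.8%) and 58.2% of control Mac (53.7 to 62.5%), against 0.467% of diabetic and 0.202% of control VSMCs-2. Without thinning the shares were 83.0% of diabetic and 92.5% of control Mac (median 4129 and 4506 UMIs), and 1.75% of diabetic and 1.41% of control VSMCs-2 (6523 and 5547 UMIs).

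Fabp3, a cytosolic fatty acid carrier known from heart and skeletal muscle, was highest in smooth muscle of both libraries. VSMCs-1 had 140 CPM (107 to 180) in the diabetic and 154 CPM (115 to 204) in the control library, VSMCs-2 had 56.5 and 49.9 CPM in diabetic and control cells, and ECs had 0 UMIs in both, which allows up to 3.51 CPM in diabetic and 2.74 CPM in control ECs. Angptl4, a secreted inhibitor of lipoprotein lipase, was highest in fibroblasts: 121 CPM in diabetic and 176 CPM in control Fib-2, and 120 CPM in diabetic and 134 CPM in control Fib-1. Pdk4, the kinase that shuts pyruvate dehydrogenase and so spares glucose, was highest in VSMCs-2 of both libraries and had 0 UMIs in diabetic and 1 UMI in control Mac.

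**Figure D1:**
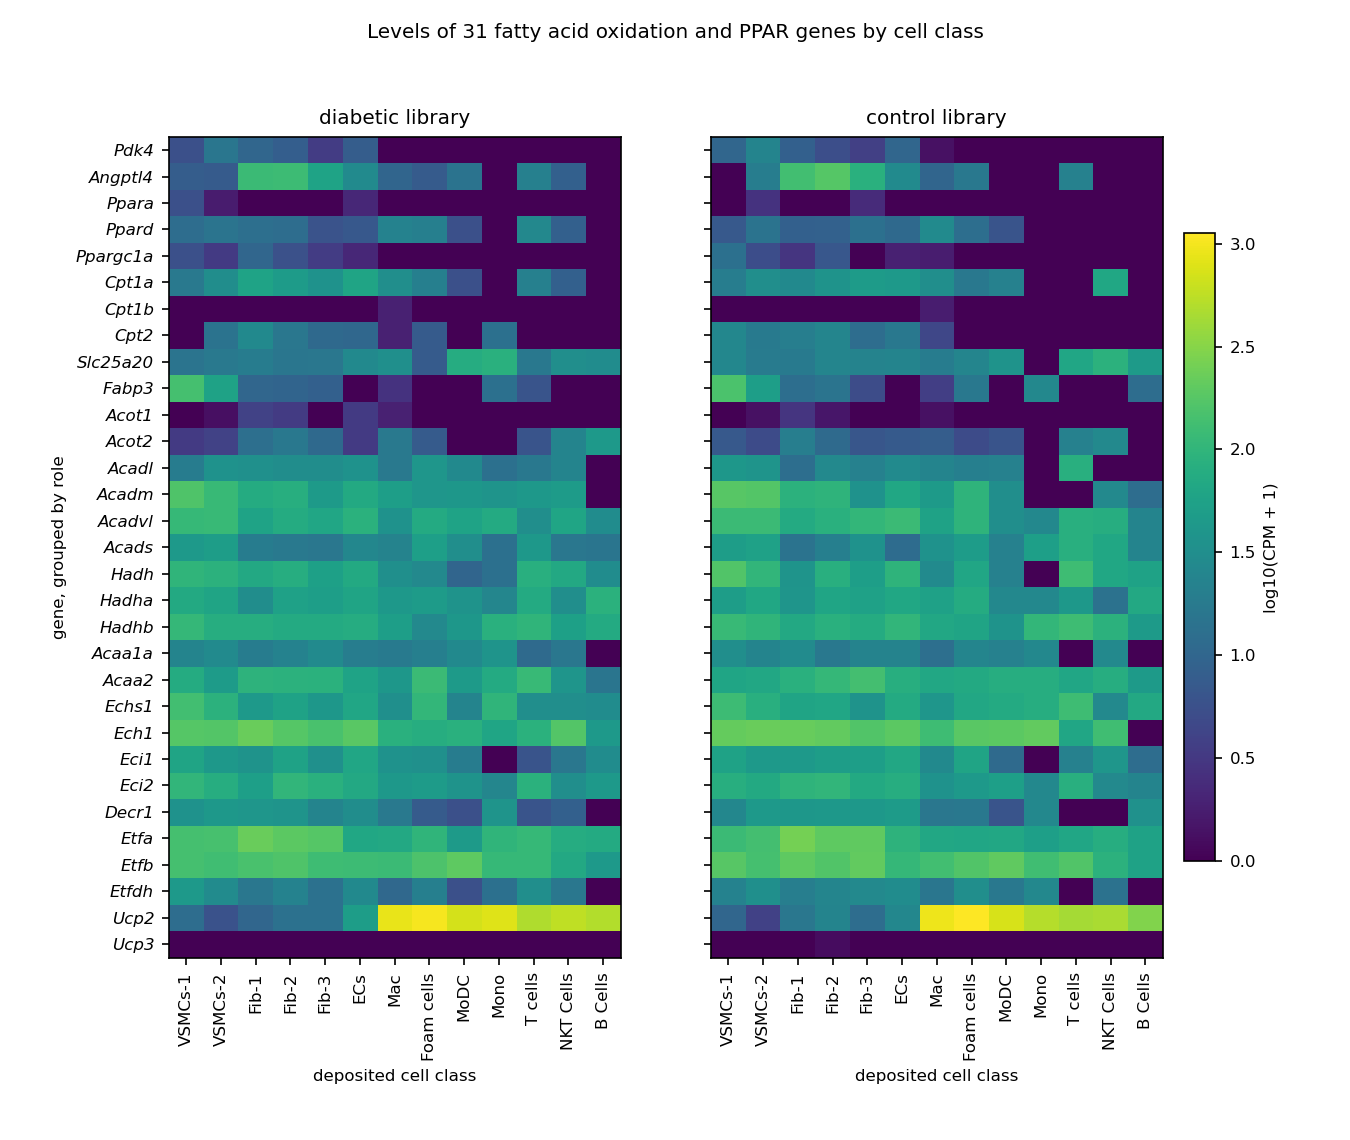
Level of each of the 31 genes (down the page, grouped by role) in the 13 deposited classes, as log10 of CPM plus 1, in the diabetic (left) and control (right) library. Ucp2 is bright in the macrophage, foam, monocyte and lymphoid classes of both panels, Fabp3 in both smooth muscle classes and Angptl4 in the fibroblast classes, while most enzymes of the cycle show a similar colour in the 7 larger classes.

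Most enzymes of the cycle were present in every class. Of the 26 genes with at least 100 UMIs over both libraries, 12 had their highest level among the 7 classes in the same class of both libraries: 5 in VSMCs-1, 2 in VSMCs-2, 2 in Mac and 1 each in ECs, Fib-1 and Fib-2. Acadm, the medium-chain dehydrogenase that starts the cycle, reached 163 CPM in diabetic and 179 CPM in control VSMCs-1. Etfa, the alpha subunit of the electron transfer flavoprotein, reached 226 CPM in diabetic and 255 CPM in control Fib-1. At the low end, Cpt1b (the muscle form of the entry enzyme) had 1 UMI in the diabetic and 2 UMIs in the control library, Ppara had 7 and 6 UMIs in diabetic and control cells, Acot1 11 and 5, and Ppargc1a 30 and 41. These genes are close to or below what this depth can compare.

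With all annotated cells pooled, 29 of the 31 genes reached 10 UMIs, 1 was called higher and 2 lower, beside 8.48% of 14529 genes higher and 9.55% lower. Angptl4 had 403 UMIs (34.1 CPM) in diabetic and 883 UMIs (71.3 CPM) in control cells, a ratio of 0.478 (0.424 to 0.538). Ucp2 had 142 CPM in diabetic and 254 CPM in control cells, a ratio of 0.561 (0.528 to 0.595), and Fabp3 had 34.8 CPM in diabetic and 21.1 CPM in control cells, a ratio of 1.65 (1.41 to 1.94). These are the 3 genes whose levels followed the classes. With each class given the same weight in both libraries, the ratio was 0.694 for Angptl4 (42.3 CPM in diabetic, 60.9 CPM in control cells), 0.958 for Ucp2 and 1.01 for Fabp3, so all 3 calls ended. In cells under 5% mitochondrial UMIs the calls of Ucp2 (0.746) and Fabp3 (1.36) also ended. Pdk4 had a pooled ratio of 1.18 (0.896 to 1.57) and of 0.767 with equal class weights. The median log2 ratio of the 29 genes was -0.01 as pooled and -0.14 with equal weights, beside 0.02 for all genes as pooled. With the total free of mitochondrial, ribosomal protein and haemoglobin UMIs it was 0.06 as pooled, beside 0.10 for all genes.

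**Figure D2:**
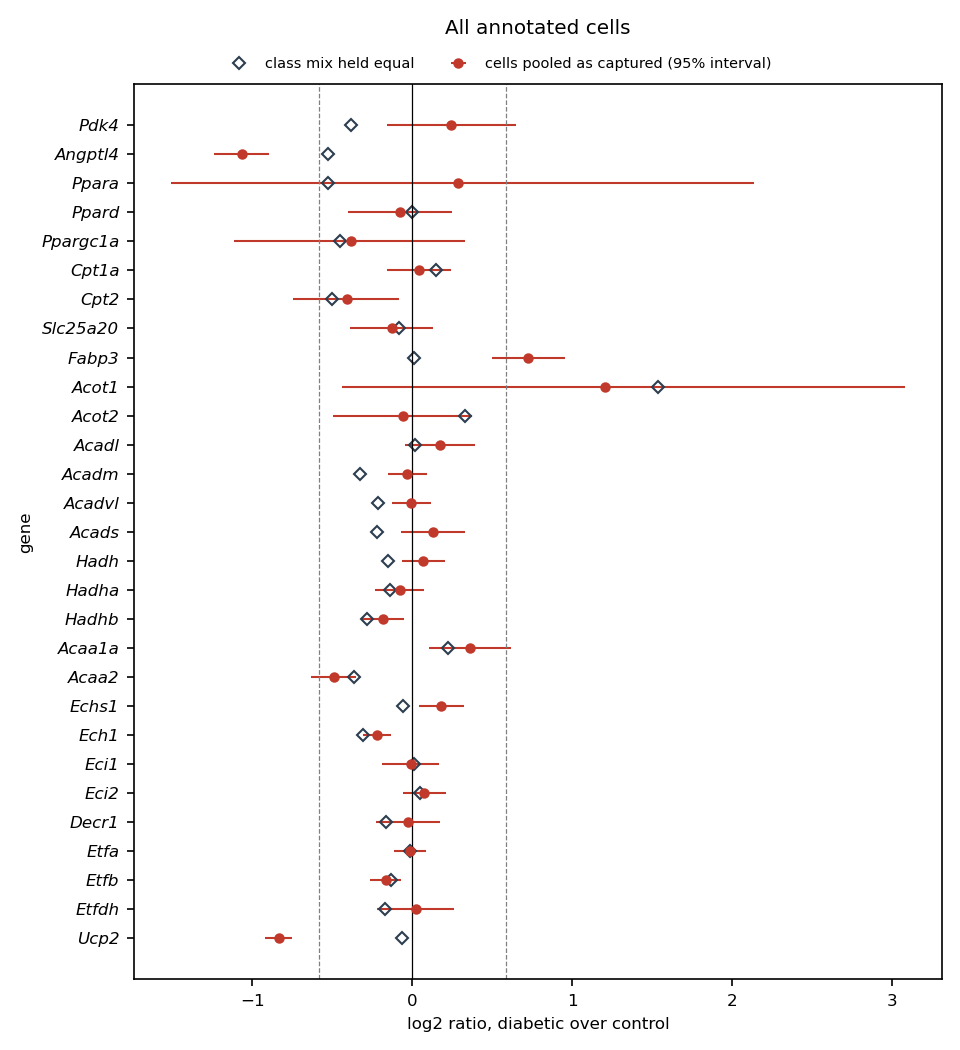
Log2 ratio of diabetic over control in all annotated cells for the 29 genes with at least 10 UMIs, as captured (filled circles, bars are 95% counting intervals) and with the class mix held equal (open diamonds); dashed lines mark 1.5-fold. For Ucp2 and Fabp3 the diamonds lie near 0 and for Angptl4 inside the dashed line, away from the circles.

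Within classes, lower values prevailed, mostly by less than 1.5-fold. Over the 7 classes the genes gave 168 gene and class pairs with at least 10 UMIs, of which 5 were called higher, 12 lower and 151 not called. That is 2.98% higher and 7.14% lower, beside 4.62% higher and 3.95% lower over all 63294 pairs of any gene. The ratio was below 1 in 112 of the 168 pairs (66.7%), beside 49.3% for all genes. The classes share the same 2 libraries, so the pairs are not independent. In 10 further pairs the interval lay below 1 with a difference under 1.5-fold, and in 0 pairs above 1. Scaled to totals without mitochondrial, ribosomal protein and haemoglobin UMIs, 7 pairs were called higher and 6 lower, with no share of all pairs at that scaling given here. That scaling raised the median log2 ratio of all genes by 0.10 in Mac, 0.10 in Fib-1 and 0.11 in Fib-3.

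By class, Fib-2 had 0 of 27 genes higher and 3 lower, beside 5.19% of all genes higher and 3.69% lower. VSMCs-2 had 0 of 27 higher and 2 lower, beside 4.33% and 4.08%. Mac had 2 of 24 higher and 2 lower, beside 8.16% and 4.54%. Fib-3 had the same number of lower calls as Fib-2 from fewer cells: 0 of 23 higher and 3 lower, beside 3.53% and 4.39%. Fib-1 had 1 of 23 higher and 1 lower, beside 2.76% and 3.92%. ECs, with 2 of 24 higher and 0 lower beside 4.11% and 3.24%, were the class with calls in the higher direction alone, and VSMCs-1 had 0 of 20 higher and 1 lower beside 2.54% and 3.77%. In all, 13 of the 31 genes were called in at least 1 class and 18 in none, of which 4 (Cpt1b, Ucp3, Ppara and Acot1) reached 10 UMIs in no class. The share of all genes called in at least 1 class is not given here, so these counts are not read as a trait of the set.

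**Figure D3:**
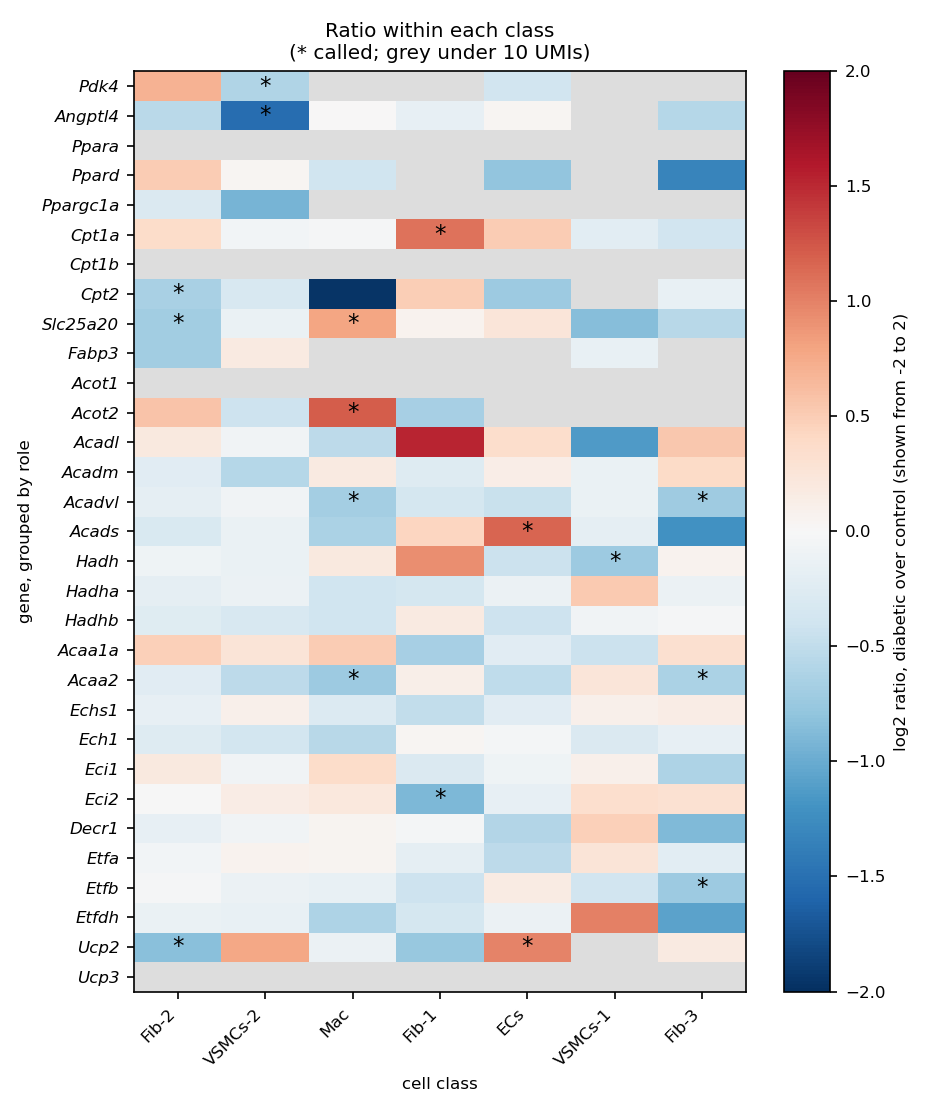
Log2 ratio of diabetic over control for each gene (down the page) in each of the 7 compared classes; blue is lower and red higher in the diabetic library, an asterisk marks a call, and grey marks under 10 UMIs. The 12 blue asterisks spread over Fib-2, VSMCs-2, Mac, Fib-1, VSMCs-1 and Fib-3, and Acadvl is blue in all 7 columns.

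Of the PPAR targets that steer fuel choice, Angptl4 and Pdk4 were both lower in VSMCs-2. Angptl4 had 37 UMIs (6.47 CPM) in diabetic and 52 UMIs (18.7 CPM) in control VSMCs-2, a ratio of 0.346 (0.221 to 0.538). These UMIs lay in 30 diabetic and 35 control cells, and the call was kept under all 8 alternative settings run for it. Pdk4 had 85 UMIs (14.9 CPM) in diabetic and 63 UMIs (22.6 CPM) in control VSMCs-2, a ratio of 0.657 (0.469 to 0.925). That call was close to the size rule and was kept under 4 of 8 settings, with a ratio of 0.927 in thinned cells. Fibroblast markers, a cell type with far more Angptl4, also had a lower sum in this class (551 CPM in diabetic and 1131 CPM in control VSMCs-2, 0 of 6 markers at 0 UMIs in either), and their part in the Angptl4 value was not tested. White adipocyte markers summed to 25.5 CPM in diabetic (1 of 7 at 0 UMIs) and 1.80 CPM in control VSMCs-2 (3 of 7 at 0), the opposite direction.

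In Fib-2, where Angptl4 was most abundant, it had 257 UMIs (121 CPM) in diabetic and 641 UMIs (176 CPM) in control cells, a ratio of 0.689 (0.594 to 0.798), just under the 1.5-fold rule. A UMI was found in 26.8% of diabetic and 42.7% of control Fib-2, and after thinning in 9.57% (7.21 to 12.4%) of diabetic and 14.7% (12.4 to 17.1%) of control cells (median 3656 and 3770 UMIs). In Mac, where Angptl4 was low, the thinned share was 0.503% of diabetic and 1.01% of control cells. Fib-3 had a ratio of 0.670 (0.396 to 1.10) and Fib-1 of 0.897 (0.593 to 1.34), so the direction was shared by the 3 fibroblast classes but the intervals of the smaller 2 held 1. ECs had 28.1 CPM in diabetic and 27.4 CPM in control cells and Mac 8.85 and 8.79 CPM, so levels in those classes were near equal. Pdk4 in Fib-2 had 15 UMIs in diabetic and 16 UMIs in control cells, a ratio of 1.61 with an interval from 0.742 to 3.48.

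**Figure D4:**
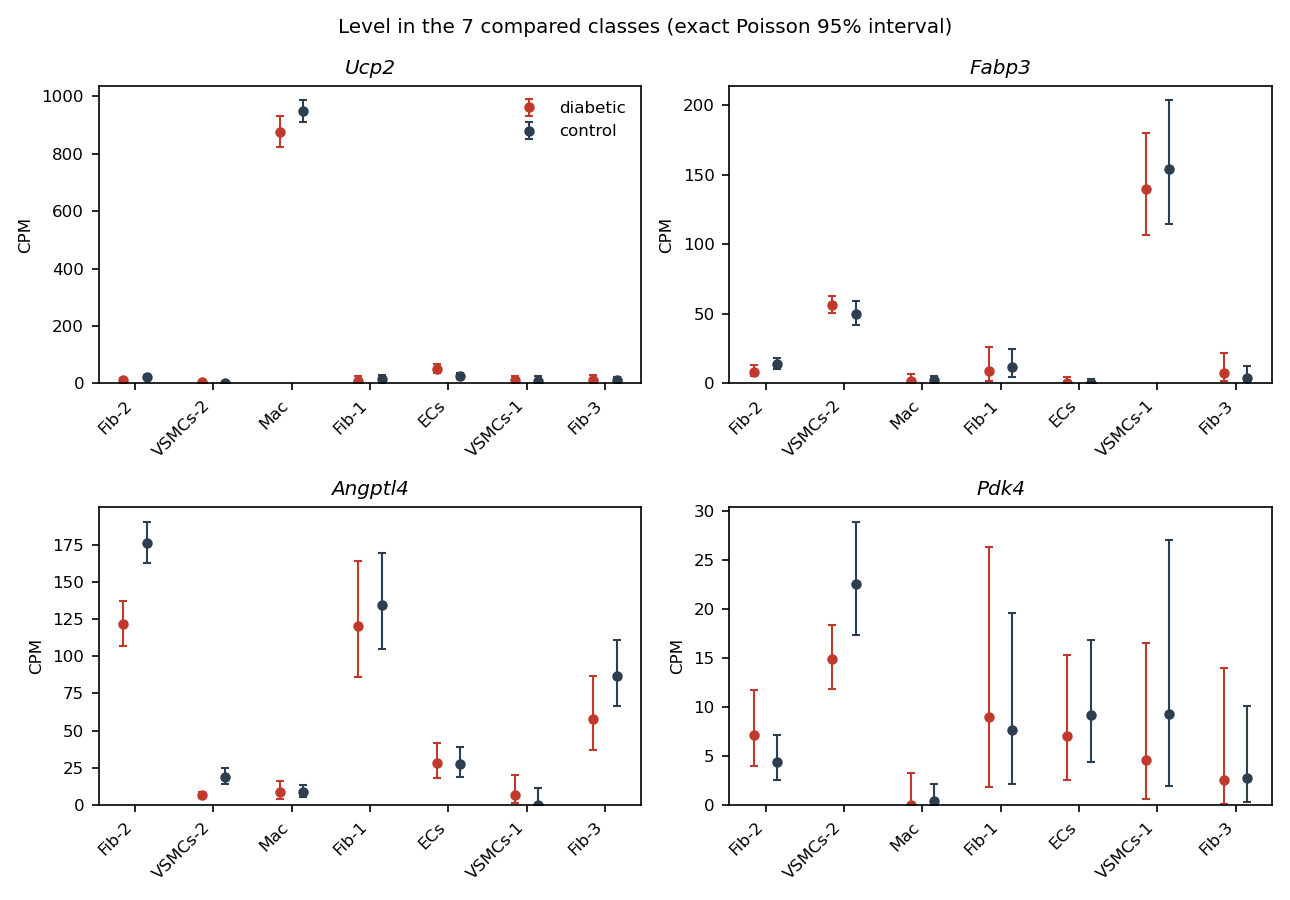
Level in CPM of Ucp2, Fabp3, Angptl4 and Pdk4 in the 7 compared classes, with the diabetic library (red) left of the control library (dark) and exact Poisson 95% intervals. Angptl4 in Fib-2 and VSMCs-2 is the case in which the diabetic point lies clearly below the control point, while the Mac points of Ucp2 and the smooth muscle points of Fabp3 lie close together.

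The receptors and their coactivator were scarce. Ppard, the most widely expressed PPAR, had 154 UMIs in diabetic and 170 UMIs in control cells, a ratio of 0.949 (0.758 to 1.19), and was highest in Mac, with 21.2 CPM in diabetic and 27.9 CPM in control cells. Ppargc1a, a coactivator that promotes mitochondrial biogenesis, had a pooled ratio of 0.766 (0.462 to 1.26). Neither gene was called in any class, and at these counts only large differences could have been called.

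The carnitine shuttle moves acyl groups into mitochondria, and its members did not move together. Cpt1a, the entry enzyme, had 34.2 CPM in diabetic and 33.3 CPM in control cells pooled. In Fib-1 it had 19 UMIs (57.2 CPM) in diabetic and 14 UMIs (26.8 CPM) in control cells, a ratio of 2.13 (1.01 to 4.59). That call was kept under 5 of 8 settings. Among the settings that ended it was the removal of the cell holding most of its UMIs in each library (ratio 2.06). Haemoglobin made up 4.61% of UMIs in diabetic and 0.252% in control Fib-1, and without cells over 1% haemoglobin the ratio was 2.28.

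Slc25a20, the translocase that exchanges acylcarnitine for carnitine, was lower in Fib-2 and higher in Mac. It had 31 UMIs (14.7 CPM) in diabetic and 86 UMIs (23.7 CPM) in control Fib-2, a ratio of 0.620 (0.397 to 0.944). In Mac it had 36 UMIs (31.9 CPM) in diabetic and 48 UMIs (18.3 CPM) in control cells, a ratio of 1.74 (1.10 to 2.73). Cpt2, which releases acyl-CoA on the inner side, was lower in Fib-2, with 32 UMIs (15.1 CPM) in diabetic and 86 UMIs (23.7 CPM) in control cells and a ratio of 0.640 (0.412 to 0.970). Each of these 3 calls was lost in thinned cells, where the ratio was 0.589 for Slc25a20 in Fib-2, 1.66 for Slc25a20 in Mac and 0.486 for Cpt2 in Fib-2, all in the same direction as before. The Cpt2 call was also lost with totals free of mitochondrial, ribosomal protein and haemoglobin UMIs (0.672).

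Among fatty acid binding and hydrolysis genes, Fabp3 differed little within smooth muscle: its ratio was 1.13 (0.924 to 1.39) in VSMCs-2 and 0.906 (0.613 to 1.34) in VSMCs-1. Acot2, a mitochondrial thioesterase that frees fatty acid from acyl-CoA, had 18 UMIs in diabetic Mac (15.9 CPM) and 18 UMIs in control Mac (6.88 CPM), a ratio of 2.32 (1.14 to 4.72). With equal weight for every cell the ratio was 4.53, and the call was lost in thinned cells (2.50). Marker sums of other cell types moved both ways in Mac. Foam cell markers summed to 2455 CPM in diabetic and 1858 CPM in control Mac, and monocyte and dendritic cell markers to 621 and 349 CPM. T cell markers summed to 1246 and 605 CPM and smooth muscle markers to 701 and 255 CPM, with 0 of 6 at 0 UMIs in each of these lists. Lower in diabetic than in control Mac were markers of natural killer cells (156 and 323 CPM), B cells (166 and 274 CPM), fibroblasts (385 and 443 CPM) and endothelial cells (44.3 and 69.9 CPM). The part of these cell types in the higher Acot2 and Slc25a20 values of Mac was not tested. Transcripts of Acot1 and Acot2 were 94.3% identical over 1330 aligned bases, so counts could be split between them, and the last 300 bases, which 3′ reads sample most, aligned over 32 bases.

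Of the 4 acyl-CoA dehydrogenases, which catalyse the opening step for different chain lengths, Acadvl (very long chains) was below 1 in all 7 classes, with ratios from 0.610 to 0.956. In Mac it had 39 UMIs (34.5 CPM) in diabetic and 145 UMIs (55.4 CPM) in control cells, a ratio of 0.623 (0.426 to 0.892). That call was kept under 6 of 8 settings and was lost with the total free of mitochondrial, ribosomal protein and haemoglobin UMIs (0.669) and in thinned cells (0.714). In Fib-3 it had 25 UMIs (63.0 CPM) in diabetic and 74 UMIs (103 CPM) in control cells, a ratio of 0.610 (0.372 to 0.972), which was 0.238 in thinned cells. The Fib-3 call was kept under 5 of 8 settings and was lost with the reduced total (0.660), without the 5% of cells with most UMIs (0.633) and without cells over 1% haemoglobin (0.634). In ECs the ratio was 0.733 (0.544 to 0.981), short of the size rule, and in VSMCs-2, with 642 diabetic and 327 control UMIs, it was 0.956 (0.835 to 1.10), so the largest count showed the smallest difference.

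Acadm had 651 UMIs (114 CPM) in diabetic and 468 UMIs (168 CPM) in control VSMCs-2, a ratio of 0.677 (0.600 to 0.764) and again just short of 1.5-fold. The intervals of the CPM did not overlap (105 to 123 in diabetic, 153 to 184 in control cells). In the other 6 classes the Acadm intervals held 1. The median mitochondrial share in this class was 5.50% in diabetic and 4.59% in control cells, and its part in the difference was not tested. Acads (short chains) had 21 UMIs in diabetic and 12 UMIs in control ECs, a ratio of 2.24 (1.05 to 4.995), which was 1.04 in thinned cells and lost its call without the cell holding most UMIs (2.21). Acadl (long chains) was called in no class.

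The later steps were mostly lower where they were called. Acaa2, the mitochondrial thiolase that closes the cycle, had 45 UMIs (39.8 CPM) in diabetic and 173 UMIs (66.1 CPM) in control Mac, a ratio of 0.602 (0.424 to 0.840), found in 36 diabetic and 145 control cells. This call was kept under all 8 settings, and the ratio was 0.270 in thinned cells. In Fib-3 Acaa2 had 88.1 CPM in diabetic and 137 CPM in control cells, a ratio of 0.645 (0.426 to 0.958) kept under 3 of 8 settings, and in VSMCs-2 its ratio was 0.695 (0.573 to 0.843). Macrophage markers as a whole were also lower in Mac, at 9969 CPM in diabetic and 17081 CPM in control cells with 0 of 6 markers at 0 UMIs, and whether this bears on Acaa2 and Acadvl was not tested.

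Hadh, which oxidises short and medium hydroxyacyl-CoA, had 43 UMIs (98.6 CPM) in diabetic and 53 UMIs (164 CPM) in control VSMCs-1, a ratio of 0.602 (0.393 to 0.918) that was 0.763 with equal weight for every cell, where the call was lost, and 0.332 in thinned cells. Hadha and Hadhb, the divergent pair whose shared upstream stretch is shown above and whose RefSeq starts lie 273 bases apart, encode the trifunctional protein of long-chain oxidation. Both were below 1 in 6 of 7 classes, though not in the same ones: Hadha was above 1 in VSMCs-1 (1.44) and Hadhb in Fib-1 (1.13). Hadha was called in no class, and Hadhb in VSMCs-2 had 77.8 CPM in diabetic and 97.4 CPM in control cells, a ratio of 0.799 (0.686 to 0.933). Echs1, the short-chain hydratase, ranged from 0.709 to 1.11 over the classes. Acaa1a, a peroxisomal thiolase, ranged from 0.628 to 1.42, and its transcript was 96.0% identical to that of Acaa1b over 1450 bases, so its counts are uncertain.

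The auxiliary enzymes handle unsaturated chains. Ech1, a dienoyl-CoA isomerase, was below 1 in 6 of 7 classes, and 3 of these intervals excluded 1 without reaching 1.5-fold. Its ratio was 0.680 (0.536 to 0.856) in Mac, 0.775 (0.700 to 0.858) in VSMCs-2 and 0.838 (0.737 to 0.951) in Fib-2. The VSMCs-2 value rests on 984 diabetic and 618 control UMIs. Eci2, an enoyl-CoA isomerase, had 17 UMIs (51.2 CPM) in diabetic and 50 UMIs (95.9 CPM) in control Fib-1, a ratio of 0.534 (0.289 to 0.941), while in the other 6 classes its interval held 1. The Fib-1 call was kept under 5 of 8 settings and was lost with the reduced total (0.572), in thinned cells (0.706) and in cells under 5% mitochondrial UMIs (0.530). Eci1 and Decr1 were called in no class, with ratios from 0.653 to 1.29 and from 0.542 to 1.39.

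Summed, the electron transfer genes had ratios of 0.973 (0.890 to 1.06) in Fib-2, 0.980 (0.903 to 1.07) in VSMCs-2 and 0.929 (0.792 to 1.09) in Mac. In Fib-3 the sum had a ratio of 0.718 (0.578 to 0.887). Etfb, the beta subunit of the flavoprotein, had a ratio of 0.988 (0.862 to 1.13) in Fib-2 and 0.927 (0.818 to 1.05) in VSMCs-2. In Fib-3, a smaller class, it had 50 UMIs (126 CPM) in diabetic and 149 UMIs (208 CPM) in control cells, a ratio of 0.606 (0.431 to 0.841), and the call was lost only in thinned cells among the 8 settings. Etfa had a ratio of 0.697 (0.493 to 0.978) in ECs and was called nowhere. Etfdh, which hands the electrons to ubiquinone, was called nowhere, with ratios from 0.476 to 2.01 over the classes.

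Ucp2 showed its smallest difference where it was abundant. In Mac it had 991 UMIs (877 CPM) in diabetic and 2483 UMIs (949 CPM) in control cells, a ratio of 0.924 (0.858 to 0.995). The lower pooled level stands beside a smaller share of Mac UMIs in the diabetic library (9.55%) than in the control library (21.1%). In ECs, where Ucp2 was low, it had 42 UMIs (49.2 CPM) in 26 diabetic cells and 27 UMIs (24.7 CPM) in 16 control cells, a ratio of 1.99 (1.20 to 3.36). In Fib-2 it had 27 UMIs (12.8 CPM) in 23 diabetic cells and 83 UMIs (22.8 CPM) in 63 control cells, a ratio of 0.559 (0.348 to 0.873). Macrophage markers summed to 26.0 CPM in diabetic and 122 CPM in control Fib-2 (2 of 6 at 0 UMIs in the diabetic and 0 of 6 in the control library), so transcripts of a Ucp2-rich cell type moved with the Fib-2 value and their part was not tested. In ECs the same markers summed to 35.1 CPM in diabetic and 155 CPM in control cells, opposite to Ucp2 there. Monocyte and dendritic cell markers summed to 70.3 CPM in diabetic and 10.1 CPM in control ECs (4 of 6 at 0 UMIs in both) and white adipocyte markers to 115 CPM in diabetic and 2.74 CPM in control ECs, the same direction as Ucp2, and their part was not tested.

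Summed over the 31 genes, the level was lower in the diabetic library in each of the 7 classes, except that the ratio was 1.01 in Fib-1 with the total free of mitochondrial, ribosomal protein and haemoglobin UMIs and 1.02 in VSMCs-1 with equal weight for every cell. It was 1574 CPM in diabetic and 1746 CPM in control Fib-2, a ratio of 0.901 (0.864 to 0.940). VSMCs-2 had 1500.3 CPM in diabetic and 1684 CPM in control cells, a ratio of 0.891 (0.860 to 0.923), and Mac 1699 and 1887 CPM in diabetic and control cells, a ratio of 0.900 (0.853 to 0.949). Fib-3 had the lowest ratio, 0.813 (0.730 to 0.905), and ECs had 0.921 (0.852 to 0.995), while the intervals of Fib-1 (0.842 to 1.05) and VSMCs-1 (0.830 to 1.03) held 1. All 7 ratios lay far inside 1.5-fold. Ucp2 alone made up 877 CPM of the sum in diabetic and 949 CPM in control Mac. By step in VSMCs-2, the dehydrogenases together had a ratio of 0.824 (0.763 to 0.890), the later steps 0.900 (0.839 to 0.966) and electron transfer 0.980 (0.903 to 1.07).

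The median log2 ratio of the genes was below that of all genes in each of the 7 classes, also under edgeR's TMM scaling and with the reduced total. With equal weight for every cell it stood above that of all genes in VSMCs-1 (0.10 beside -0.07) and ECs (-0.00035 beside -0.02) and below it in the other 5 classes, and in thinned VSMCs-1 cells it was 0.02. It was -0.17 in Fib-2 beside 0.03 for all genes, -0.12 in VSMCs-2 beside 0.01, and -0.13 in Mac beside 0.08. ECs had -0.15 beside -0.01, VSMCs-1 -0.13 beside 0.01, Fib-1 -0.18 beside -0.07 and Fib-3 -0.21 beside -0.05. Intervals of these medians, taken over genes and not over libraries, held the value of all genes in Mac (-0.53 to 0.19) and Fib-1 (-0.35 to 0.11). They also held it in ECs (-0.44 to 0.13), VSMCs-1 (-0.29 to 0.25) and Fib-3 (-0.63 to 0.08). Those of Fib-2 (-0.26 to -0.009) and VSMCs-2 (-0.33 to -0.05) lay below it. The genes were read in the same libraries and are not replicates, so these intervals are no test of the set. The list of 44 other fatty acid oxidation genes, described below, had medians of -0.14 in Mac, -0.20 in Fib-1, -0.22 in Fib-3 and -0.12 in VSMCs-2. Those were near or below the medians of the 31 genes. Medians of that list were higher than those of the 31 genes in Fib-2 (-0.05), ECs (-0.02) and VSMCs-1 (0.06). Lists of neighbouring pathways did not share one order. Glycolysis genes had medians of 0.12 in Mac, 0.11 in VSMCs-1, -0.04 in Fib-2, -0.08 in ECs, -0.11 in VSMCs-2, -0.25 in Fib-1 and -0.29 in Fib-3. Citric acid cycle genes stood below the fatty acid oxidation set in Fib-1 (-0.31) and Fib-3 (-0.32) and above it in the other 5 classes, and nuclear genes of the respiratory chain ranged from -0.15 in Fib-1 to 0.09 in Mac.

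**Figure D5:**
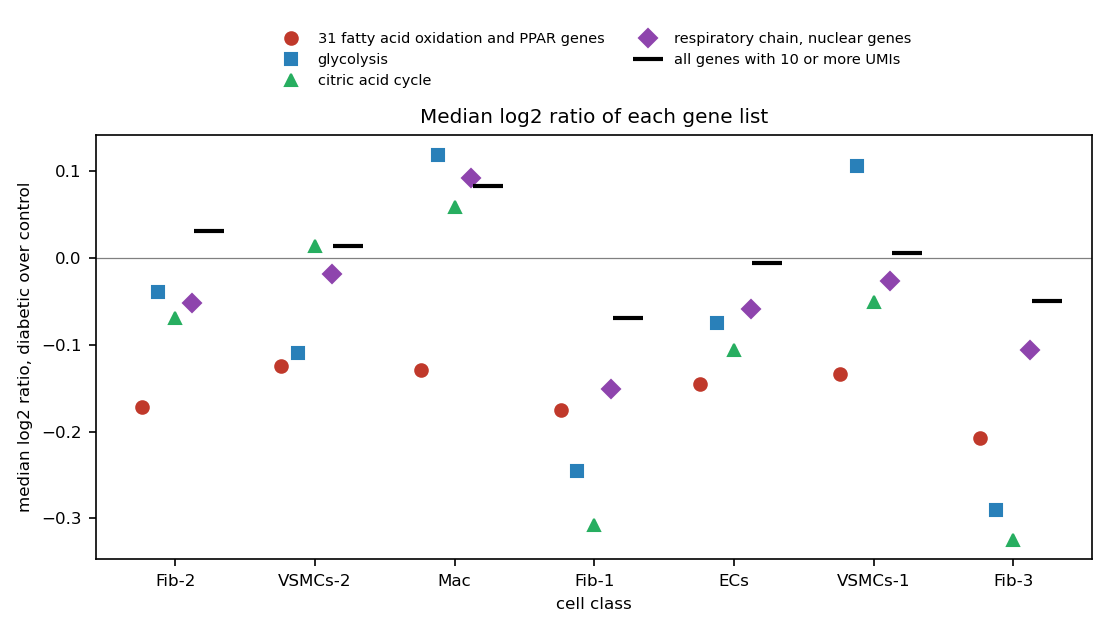
Median log2 ratio of diabetic over control in each of the 7 classes for the 31 genes, for glycolysis, citric acid cycle and nuclear respiratory chain genes, and for all genes with at least 10 UMIs (black bar). The circles of the 31 genes lie below the bar in every class, from -0.12 in VSMCs-2 to -0.21 in Fib-3, whereas with equal weight for every cell the VSMCs-1 (0.10) and ECs (-0.00035) values stand above those of all genes. In Mac, Fib-1, ECs, VSMCs-1 and Fib-3 the interval of the median over the genes (not drawn) held the value of all genes.

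Other genes of the pathway were taken from a list of 44. Pooled, 4 of 43 measured were higher and 3 lower, beside 8.48% of all genes higher and 9.55% lower. Within the classes 23 to 39 were measured, and at most 2 were higher and 1 lower. The shares of all genes there ran from 2.54% to 8.16% higher and from 3.24% to 4.54% lower. In VSMCs-2, Acox3, a peroxisomal acyl-CoA oxidase, had 43.5 CPM in diabetic and 23.7 CPM in control cells, a ratio of 1.84 (1.39 to 2.45). Mlycd, which removes the malonyl-CoA that blocks Cpt1a, had 31 UMIs in diabetic and 5 UMIs in control VSMCs-2, a ratio of 3.02 (1.16 to 9.94), while Decr2, the peroxisomal reductase, had a ratio of 0.623 (0.448 to 0.868). In Mac, Hsd17b4, a peroxisomal bifunctional enzyme, had 30.1 CPM in diabetic and 61.5 CPM in control cells, a ratio of 0.489 (0.327 to 0.712), the same direction as Acaa2 and Acadvl there. In Fib-2, Ivd, a dehydrogenase of leucine breakdown, had a ratio of 1.64 (1.04 to 2.57).

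The wider PPAR list of 42 lipid uptake, storage and coregulator genes moved differently by class. Pooled, 6 of 35 were higher and 5 lower, beside 8.48% of all genes higher and 9.55% lower. In ECs 4 of 25 were higher and 1 lower, beside 4.11% and 3.24%: Fabp4, a lipid carrier, had 1758 CPM in diabetic and 1109 CPM in control cells (ratio 1.59, 1.47 to 1.71), Cd36, a fatty acid transporter, had a ratio of 1.94 (1.46 to 2.57) and Lpl, lipoprotein lipase, of 1.997 (1.18 to 3.44). The other 2 calls, named after their values were seen, rest on few UMIs: Pparg, the PPAR of fat cells, had 11 UMIs in diabetic and 3 UMIs in control ECs (ratio 4.69, 1.24 to 26.2), and Pdk2, a relative of Pdk4, 3 UMIs in diabetic and 16 UMIs in control ECs (ratio 0.240, 0.0448 to 0.839). White adipocyte markers, cells rich in these transcripts, summed to 115 CPM in diabetic ECs (1 of 7 at 0 UMIs) and 2.74 CPM in control ECs (5 of 7 at 0), and their part was not tested. Lpl went the other way in fibroblasts. It had 107 CPM in diabetic and 220.0 CPM in control Fib-2, a ratio of 0.488 (0.419 to 0.566), and a ratio of 0.596 (0.420 to 0.835) in Fib-1, so both Lpl and its inhibitor Angptl4 were below 1 in these classes.

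Plin2, the coat protein of lipid droplets, was lower in Fib-2 (25.1 CPM in diabetic and 43.5 CPM in control cells, ratio 0.577, 0.414 to 0.792) and in VSMCs-2 (ratio 0.548, 0.429 to 0.702). In Mac, Fabp5, another lipid carrier, had 311 UMIs (275 CPM) in diabetic and 157 UMIs (60.0 CPM) in control cells, a ratio of 4.59 (3.77 to 5.59). These UMIs lay in 55 diabetic and 78 control cells, with 16.4% of the diabetic UMIs in 1 cell. The foam, monocyte and T cell marker sums given above were higher in diabetic than in control Mac too, while natural killer and B cell sums were lower. The part of these cell types in the Fabp5 value was not tested. Nrip1, a corepressor of oxidative genes, had a ratio of 2.61 (1.83 to 3.72) in Mac, and Cat, the catalase of peroxisomes, of 0.608 (0.439 to 0.829). Pdk3, a relative of Pdk4, was higher in Fib-2 with 20 UMIs in diabetic and 14 UMIs in control cells, a ratio of 2.46 (1.18 to 5.26).

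In VSMCs-1, Cidec, Fabp4 and Hilpda, genes of lipid droplets and lipid transport, were called lower, but all 34 control UMIs of Cidec lay in 1 cell, and 56.5% of diabetic and 68.5% of control Fabp4 UMIs lay in 1 cell each. Hilpda had 9 UMIs in diabetic and 23 UMIs in control cells, a ratio of 0.290 (0.118 to 0.652). Pooled, Plin4 and Cidea were 2.79-fold and 2.74-fold higher in the diabetic library and 1.47-fold and 1.36-fold higher with equal class weights, while Cd36 (0.442) and Lpl (0.453) had ratios of 0.831 and 0.663 with equal weights. Of 14 genes induced by glucocorticoids or FOXO factors, which also act on Pdk4 and Angptl4, 0 were called higher and 3 lower pooled, beside 8.48% and 9.55% of all genes. In VSMCs-2, where both Pdk4 and Angptl4 were lower, 0 were higher and 2 lower, beside 4.33% and 4.08%. In Mac 3 of 13 measured were higher and 1 lower, beside 8.16% and 4.54% of all genes. Fib-2 had 2 of 14 higher and 1 lower, beside 5.19% and 3.69%, and Fib-1 2 of 12 higher and 1 lower, beside 2.76% and 3.92%. ECs had 0 of 13 higher and 2 lower, beside 4.11% and 3.24%. VSMCs-1 had 0 of 10 higher and 1 lower, beside 2.54% and 3.77%, and Fib-3 0 of 13 higher and 1 lower, beside 3.53% and 4.39%.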

How the data were processed

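The authors deposited UMI counts per gene and barcode. The submitters' processing notes name Cell Ranger 3.1.0, Partek and the build mm10. Libraries used 10x Genomics 3′ v2 chemistry, per the labels' protocols. The annotation and barcode filter were not given in the sources used. Cell classes are the authors' deposited annotation, and barcodes without a class (934 diabetic, 1155 control) were left out. The deposited counts were summed per library and class, scaled to CPM and given exact Poisson intervals. Ratios have exact conditional binomial 95% intervals (scipy 1.17.1). These were tested on simulated independent Poisson counts, so that test does not cover UMIs clustered in single cells. Shares of cells have Clopper-Pearson intervals after thinning to 1000 UMIs (seed 1). A count of 0 allows up to 3 UMIs. No test was possible with 1 library per group. No doublet caller was run, so doublets may remain. Equal class weights were the mean UMI shares of both libraries. All called genes of the set are named, and up to 4 called genes per class with at least 30 UMIs from the other PPAR and oxidation lists. A result that this rule names is not reported here. Alternatives included TMM scaling (edgeR 4.0.16). The members and lists were chosen with earlier results of these data known. Gene positions are from GENCODE M21, promoters from RefSeq.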

Additional observations from a re-analysis of the deposited data

Results flagged for a closer look

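Ucp2 and Slc25a20 were called in opposite directions in different classes. The Ucp2 ratio was 0.559 in Fib-2 (12.8 CPM in diabetic and 22.8 CPM in control cells) and 1.99 in ECs (49.2 CPM in diabetic and 24.7 CPM in control cells). The Slc25a20 ratio was 0.62 in Fib-2 (14.7 CPM in diabetic and 23.7 CPM in control cells) and 1.74 in Mac (31.9 CPM in diabetic and 18.3 CPM in control cells). The difference between classes was not tested, since each class gives 1 ratio.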

How the results depend on the processing

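Of 20 called values, 2 kept their call under every alternative scaling, weighting and choice of cells (Acaa2 in Mac and Angptl4 in VSMCs-2), and none turned its direction. The Acaa2 ratio in Mac (0.602) did not reach the 2-fold rule, which was run as a further alternative. Of the 20 calls 13 were lost in cells thinned to 1000 UMIs, which hold fewer UMIs, 1 under TMM scaling, 4 with equal weight for every cell, 5 in cells under 5% mitochondrial UMIs, 6 with totals free of mitochondrial, ribosomal protein and haemoglobin UMIs, and 2 each without the top cell, the 5% of cells with most UMIs or cells over 1% haemoglobin. Most ratios in Fib-3 and Fib-1 rest on under 100 UMIs per library. The pooled calls of Angptl4, Ucp2 and Fabp3 ended with the class mix held equal (0.694, 0.958 and 1.01), and the median log2 ratio of the genes was then -0.14. Pairs called higher over the 7 classes numbered 1 in thinned cells, 3 without the top cell and 3 at 2-fold; pairs called lower numbered 6 with the reduced total, 6 in thinned cells and 1 at 2-fold. Pooled, 0 were higher with equal cell weight, under 5% mitochondrial UMIs or at 2-fold, and 4 were lower in thinned cells and 1 at 2-fold. Shares of all genes called under these settings are not given here, so these counts have no background beside them. The ratio of the summed level with the reduced total was 0.936 pooled, 0.947 in Fib-2, 0.926 in VSMCs-2 and 0.966 in Mac. With that total the intervals of Mac (0.916 to 1.02) and ECs (0.892 to 1.04) held 1. In thinned cells those of Fib-2 (0.855 to 1.01) and ECs (0.831 to 1.11) held 1, and so did ECs without the 5% of cells with most UMIs (0.861 to 1.02). The ratio of the summed level was 0.910 pooled with equal cell weight, 0.829 in Mac under TMM, which shifted all genes there by -0.12 on the log2 scale, and in thinned cells 0.839 in Mac and 0.676 in Fib-3. No paired analysis was possible because each group has 1 library.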

Other observations

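Barcodes without a class, 934 in the diabetic and 1155 in the control library, held 690 CPM of the 31 genes in the diabetic and 1643 CPM in the control library, a ratio of 0.420 (0.403 to 0.438). Haemoglobin made up 59.3% of the 5814027 UMIs of these barcodes in the diabetic and 7.32% of 2923980 in the control library. CPM is scaled to totals that include it, so these ratios mix gene levels with the haemoglobin share. They do not show by themselves that the genes were lower, and levels without haemoglobin were not computed here. The 31 genes had 4012 UMIs in the diabetic and 4804 UMIs in the control library. On the same totals, Ucp2 had 320 CPM (1860 UMIs) in the diabetic and 501 CPM (1464 UMIs) in the control library, a ratio of 0.639 (0.596 to 0.685). Its UMI count was higher in the diabetic library, from fewer barcodes, so this ratio does not show the direction of Ucp2. Ech1 had 42.0 CPM in the diabetic and 150.5 CPM in the control library. Ucp1, the uncoupling protein of brown fat, chosen after its values were seen, had 19 UMIs in diabetic and 0 UMIs in control VSMCs-1, at least 4.70-fold higher against a floor of 3 UMIs, with 94.7% of the diabetic UMIs in 1 of 2 cells.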
